A study of Sus scrofa with 48 samples.

Results

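The genes described here are transcription factors that mark regions of the hypothalamus, the part of the brain that controls feeding, water balance and hormone release. They were chosen by name: SIM1, OTP, FEZF1, NR5A1, SIX3, SIX6, TBX3, RAX, LHX9 and NKX2-1. Of these 10 genes, 9 were matched to a row of the 22924 genes in the deposited count table, and NKX2-1, which was not matched here, is named only. RNA sequencing of polyA RNA was done on hypothalamus and on ileum, the end of the small bowel, from weaned piglets (Sus scrofa) sampled at day 7 or at day 39, which gave 8 groups of 6 libraries and 48 in all. Piglets were put in the low or high growth group by average daily gain up to the day of sampling, so the groups contrast animals that differed in growth and not an imposed treatment. The 4 hypothalamus groups were low growth on day 7, high growth on day 7, low growth on day 39 and high growth on day 39. The labels name no breed, sex, litter or age beyond these days, and do not say how the hypothalamus was cut out. Whether libraries of a group came from separate animals is given only as separate samples, and the p-values measure the spread between them, which may be partly technical.

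In the mouse each of these factors is tied to a part of the hypothalamus or a cell type. SIM1 and OTP are needed to form the neurons of the paraventricular and supraoptic nuclei, which release vasopressin (AVP), oxytocin (OXT) and corticotropin-releasing hormone (CRH). FEZF1 and NR5A1, the steroidogenic factor, mark the ventromedial nucleus, where PACAP (the product of ADCYAP1) is a common peptide. SIX3 and SIX6 pattern the anterior forebrain, the eye field and the pituitary. TBX3 keeps the identity of arcuate feeding neurons, RAX marks tanycytes, the ventricle-lining cells of the median eminence, and NKX2-1 acts across the ventral hypothalamus. LHX9 is made in parts of the lateral and caudal hypothalamus and promotes hypocretin (HCRT) neurons, and it is also a factor of the pineal gland. In whole pieces of tissue, fewer cells of a type and less RNA per cell cannot be told apart.

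On the pig genome build Sscrofa11.1 the RefSeq gene table places SIM1 (ENSSSCG00000004357) on chromosome 1, 67213685 to 67294455, and OTP (ENSSSCG00000014099) on chromosome 2, 86529293 to 86566414. FEZF1 (ENSSSCG00000031221) lies on chromosome 18, 24881850 to 24884790, and NR5A1 (ENSSSCG00000005588) on chromosome 1, 265284491 to 265311547. SIX3 (ENSSSCG00000039283) lies on chromosome 3, 95521330 to 95527004, and SIX6 (ENSSSCG00000005086) on chromosome 1, 189497807 to 189503189. TBX3 (ENSSSCG00000009865) lies on chromosome 14, 37582704 to 37596767, RAX (ENSSSCG00000004910) on chromosome 1, 161679154 to 161683486, and LHX9 (ENSSSCG00000010903) on chromosome 10, 20742323 to 20764006. The values are whole-gene levels, so no exon or UTR is told apart.

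Hypothalamus libraries held 14.2 to 21.1 M estimated counts (M, mega; median 16.1 M), and 1 count was worth 0.047 to 0.081 CPM (read counts scaled to a common library size). A count of 0 allows a level of up to 0.141 to 0.242 CPM (3 counts of the library's total, counting error only). Below, a factor is called detected in a library at 1 CPM or more. Levels are compared between libraries for the same gene, not between genes, since the values are not per length.

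A pair of low growth libraries of day 39 stood apart by genes of neighbouring glands, and growth differences are given with and without them where these move them most. In replicate 1 the anterior pituitary list (9 of 12 listed genes matched) summed to 4760 CPM, against 0.73 to 10.2 CPM in the other 22 libraries. Of that sum, CGA, the shared subunit of the glycoprotein hormones, held 3602 CPM and FSHB, the subunit of follicle-stimulating hormone, 1062 CPM. PRL, the prolactin gene, was at 0.053 CPM there. In replicate 3 the pineal list (16 of 18 matched) summed to 6613 CPM, against 21.1 to 191 CPM in the other 22. All 16 were at their highest in replicate 3, with PAX4 tied at 0 in every library, and ASMT and AANAT, the enzymes of melatonin synthesis, stood at 1552 and 301 CPM. GAD1, an enzyme of GABA synthesis found in most hypothalamic nuclei, was at 0.718 CPM in replicate 3 and at 18.4 CPM or more in the other 22. The oligodendrocyte list was low in both, with 2011 CPM in the first and 424 CPM in the second, against 7964 to 158192 CPM elsewhere. The part of other tissue in the factor levels was not tested beyond leaving these libraries out.

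**Figure D1:**
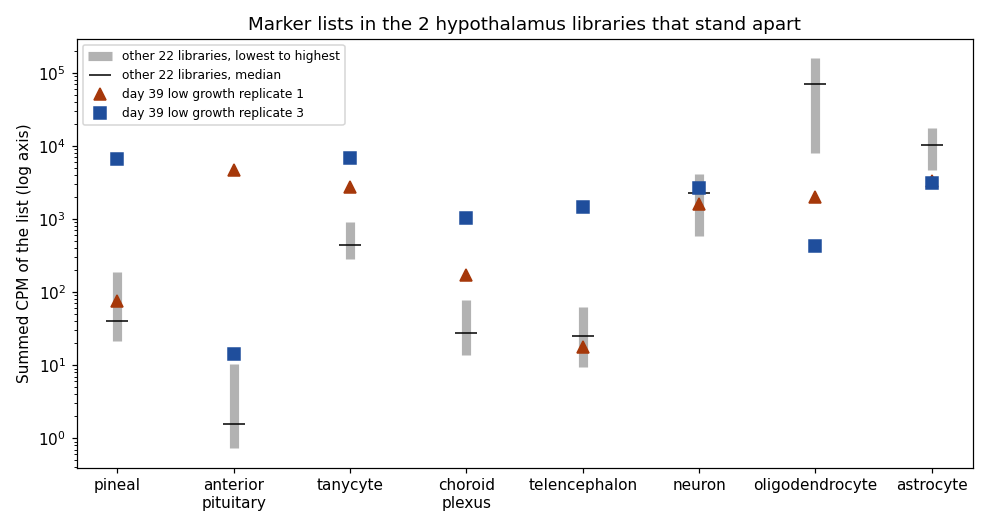
Summed CPM of 8 marker gene lists (log axis) in day 39 low growth replicate 1 (triangles) and replicate 3 (squares), with grey bars from the lowest to the highest and a black dash at the median of the other 22 hypothalamus libraries. The anterior pituitary sum of replicate 1 (4760 CPM) and the pineal sum of replicate 3 (6613 CPM) lie far above the grey bars, and the oligodendrocyte sums of both lie below theirs.

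SIM1 and OTP, the paraventricular pair, were plentiful in some hypothalamus pieces, up to 32.8 and 50.2 CPM, and near 0 in others of the same group. SIM1 ranged from 0.271 through a median of 0.900 to 7.81 CPM in the 6 day 7 low growth libraries and from 0.609 through 4.97 to 32.8 CPM in day 7 high growth. On day 39 it ranged from 0 through 0.422 to 17.8 CPM in low growth and from 0.161 through 6.81 to 26.9 CPM in high growth. The medians were lower in low growth on both days, and the groups overlapped on both. The SIM1 difference, low minus high growth, was -2.15 ± 1.26 on the log2 scale (SE, n = 6 per group) on day 7 and -1.43 ± 1.23 on day 39, and neither passed edgeR's quasi-likelihood test (adjusted p = 0.705 and 0.999). Leaving out 1 library moved the day 7 value between -3.07, without low growth replicate 3, and -1.34, without high growth replicate 1. The day 39 value lay between -2.86, without low growth replicate 6, and -0.996, without high growth replicate 1, and was -0.90 without both libraries that stand apart.

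OTP ranged from 0.135 through 2.56 to 18.7 CPM in day 7 low growth and from 0 through 6.33 to 48.9 CPM in day 7 high growth. On day 39 its levels were 0, 7.09 and 31.4 CPM (lowest, median, highest) in low growth and 0.242, 9.35 and 50.2 CPM in high growth. OTP split the libraries into 15 at 4.59 CPM or more and 9 at 0.537 CPM or less, with none between, and every group had libraries on both sides of that gap. The OTP difference was -1.27 ± 1.34 on day 7 (adjusted p = 0.870 by edgeR) and -0.68 ± 1.32 on day 39 (adjusted p = 0.999). The day 7 value was -0.16 without high growth replicate 1 and -2.21 without low growth replicate 3.

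FEZF1 and NR5A1, the ventromedial pair, reached their highest levels together in 1 library, day 7 low growth replicate 6, at 78.6 CPM for FEZF1 and 27.9 CPM for NR5A1. FEZF1 otherwise spread widely within every group. It ranged from 0.392 through a median of 2.49 to 78.6 CPM in day 7 low growth and from 0.220 through 1.60 to 20.3 CPM in day 7 high growth. On day 39 it ranged from 0 through 1.72 to 9.84 CPM in low growth and from 0.645 through 8.53 to 13.7 CPM in high growth. The day 39 low growth median was below that of high growth, while 3 low growth libraries lay under 1 CPM and the groups overlapped. The FEZF1 difference was 1.76 ± 1.24 on day 7 (adjusted p = 0.767 by edgeR) and -1.0 ± 1.23 on day 39 (adjusted p = 0.999). Its day 7 value turned to -0.81 without low growth replicate 6 and was 3.52 without high growth replicate 1.

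NR5A1 was detected in 6 of 24 hypothalamus libraries. Its levels were 0.068, 0.747 and 27.9 CPM (lowest, median, highest) in day 7 low growth and 0.062, 0.155 and 0.380 CPM in day 7 high growth. On day 39 they were 0, 0.352 and 23.4 CPM in low growth and 0.118, 0.432 and 7.11 CPM in high growth. No day 7 high growth library reached 1 CPM, whereas 3 of 6 low growth libraries did, and 5 of 6 low growth libraries were above the high growth median. The day 7 difference, 4.93 ± 1.71, was the largest of the 8 tested factors and did not pass (adjusted p = 0.549 by edgeR, unadjusted 0.00856), and it was 1.98 without low growth replicate 6. On day 39 the difference of 1.40 ± 1.39 (adjusted p = 0.999) turned to -2.52 without low growth replicate 1, which held 23.4 CPM of NR5A1 and the pituitary hormone transcripts. NR5A1 is also made in the gonadotrope cells of the pituitary.

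The library with the highest FEZF1 and NR5A1 also held the highest levels of 3 of the 6 genes on a ventromedial list. ADCYAP1 was at 95.6 CPM in day 7 low growth replicate 6, where the median of the 22 libraries that do not stand apart, itself among them, was 14.2 CPM. BDNF, a growth factor, was at 12.3 CPM there against that median of 2.53 CPM, and NPTX2, a synaptic pentraxin, at 233 CPM against 12.6 CPM. FOXP2, another gene of that list, was at 3.29 CPM, the 20th highest of 24. Of the paraventricular pair the same library held 1.44 CPM of SIM1 and 8.77 CPM of OTP. Day 7 high growth replicate 1 showed another make-up, with the highest SIM1 (32.8 CPM), FEZF1 at 20.3 CPM and NR5A1 at 0.174 CPM.

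**Figure D2:**
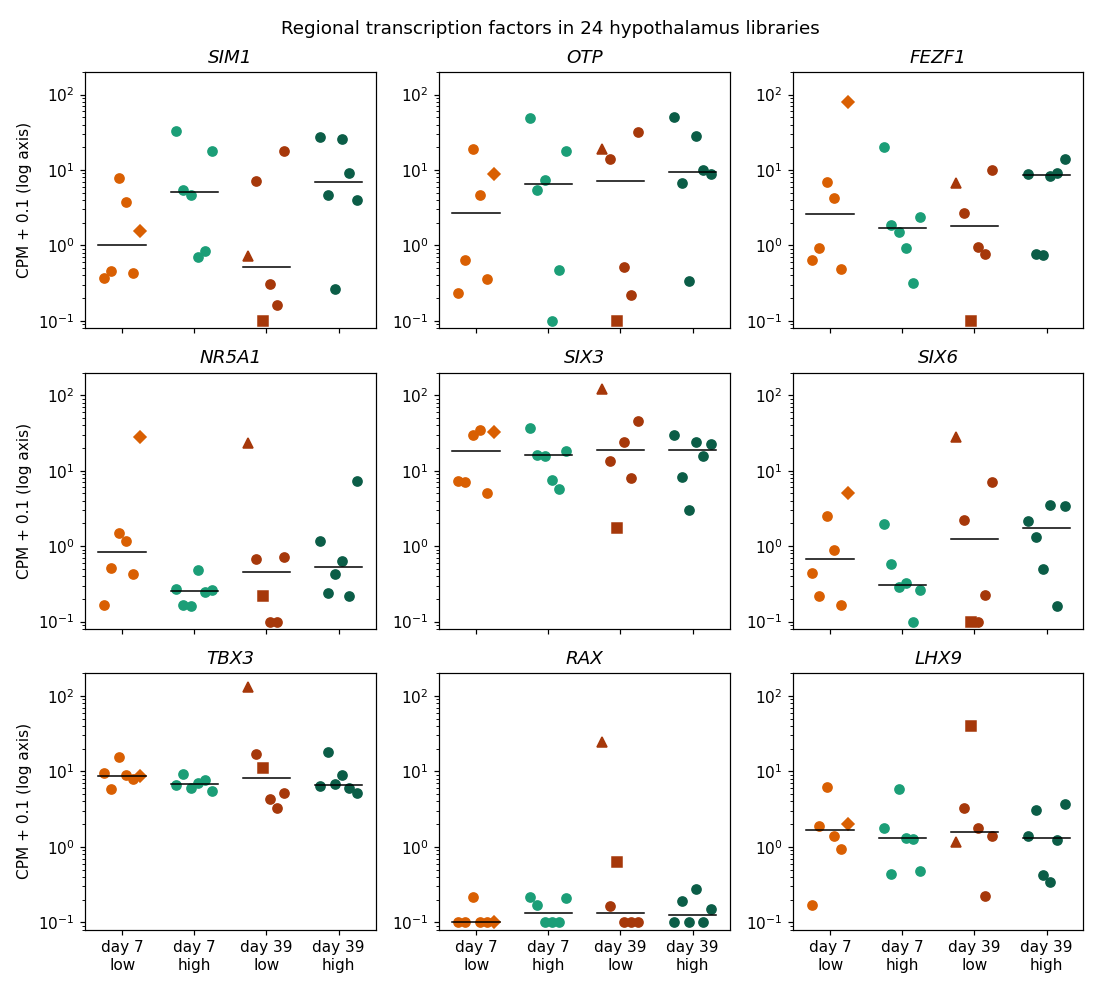
Levels of the 9 factors in the 24 hypothalamus libraries, as CPM plus 0.1 on a log axis, by day and growth group, with a black line at each group's median. The triangle and the square are day 39 low growth replicates 1 and 3 and the diamond is day 7 low growth replicate 6: SIM1 and OTP spread from near 0 upward in every group, SIX3 and TBX3 are detected in all 24 libraries, and RAX is near 0 except in the triangle at 24.2 CPM.

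SIX3, an anterior forebrain factor, was detected in all 24 hypothalamus libraries. It ranged from 4.97 through a median of 18.2 to 34.2 CPM in day 7 low growth and from 5.65 through 15.8 to 37.1 CPM in day 7 high growth. On day 39 it ranged from 1.62 through 18.6 to 123 CPM in low growth and from 2.90 through 18.9 to 29.5 CPM in high growth. The group medians lay close together, and both the lowest and the highest library were in day 39 low growth, the lowest being replicate 3 and the highest replicate 1. The SIX3 difference was 0.20 ± 0.74 on day 7 and 1.07 ± 0.74 on day 39 (adjusted p = 0.970 and 0.999 by edgeR), and the second was 0.40 ± 0.65 without both libraries that stand apart.

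SIX6, its close relative, was detected in 10 libraries. Its levels were 0.065, 0.566 and 4.91 CPM (lowest, median, highest) in day 7 low growth and 0, 0.207 and 1.86 CPM in day 7 high growth. On day 39 they were 0, 1.13 and 28.2 CPM in low growth and 0.059, 1.64 and 3.42 CPM in high growth. Its highest library was again day 39 low growth replicate 1, and in replicate 3 of that group it was at 0. The SIX6 difference was 1.53 ± 1.31 on day 7 and 1.83 ± 1.25 on day 39 (adjusted p = 0.817 and 0.999 by edgeR), and the second was 0.38 ± 1.17 without both libraries that stand apart.

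TBX3, the arcuate factor, had the smallest spread of the 8 tested. It ranged from 5.67 through a median of 8.69 to 15.4 CPM in day 7 low growth and from 5.47 through 6.78 to 9.05 CPM in day 7 high growth. On day 39 it ranged from 3.21 through 8.0 to 132.8 CPM in low growth and from 5.03 through 6.50 to 17.7 CPM in high growth. Outside day 39 low growth replicate 1, at 132.8 CPM, all levels lay between 3.21 and 17.7 CPM, and the groups overlapped. The TBX3 difference was 0.42 ± 0.66 on day 7 (adjusted p = 0.924 by edgeR) and 1.77 ± 0.67 on day 39 (adjusted p = 0.745), and the latter was -0.074 without low growth replicate 1. The day 7 SE comes from a spread shared with the day 39 libraries. With day 7 libraries alone the day 7 value was 0.42 ± 0.23 (adjusted p = 0.732 by edgeR).

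RAX, the tanycyte factor, was at or near 0 in 23 hypothalamus libraries, none of which exceeded 0.54 CPM, and at 24.2 CPM in day 39 low growth replicate 1. Too few libraries held counts for it to pass the filter, so it was not tested. In that same library the tanycyte list (12 of 12 matched) summed to 2780 CPM, against 287 to 918 CPM in the other 22. VIM alone held 1507 CPM of that sum. Of the 12 genes 6 were at their highest there, while CNTFR ranked 10th, GPR50 12th and PPP1R1B, at 9.08 CPM, last of 24. CRYM, a thyroid hormone binding protein of tanycytes, stood at 815 CPM there against 5.71 to 44.8 CPM in those 22. The arcuate peptides AGRP and GHRH were at their highest in it too, at 32.4 and 27.5 CPM, against at most 5.43 and 3.58 CPM in those 22, while CARTPT and PDYN each ranked 8th of 24, and the sum of the 5 matched arcuate peptides, 227 CPM, lay inside the range of those 22 (7.36 to 335 CPM). Replicate 3 of the group also had a high tanycyte sum, 6928 CPM, of which CRABP1, a retinoic acid binding protein, made up 6340 CPM.

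LHX9 was detected in 17 libraries at low levels. Its levels were 0.068, 1.55 and 6.05 CPM (lowest, median, highest) in day 7 low growth and 0.340, 1.20 and 5.81 CPM in day 7 high growth. On day 39 they were 0.124, 1.48 and 39.5 CPM in low growth and 0.240, 1.20 and 3.65 CPM in high growth. The library at 39.5 CPM was day 39 low growth replicate 3, the one with the pineal transcripts, in which SIM1, OTP, FEZF1 and SIX6 were all at 0. The LHX9 difference was 0.18 ± 1.03 on day 7 (adjusted p = 0.984 by edgeR) and 2.27 ± 1.05 on day 39 (adjusted p = 0.901), and the second was -0.14 without low growth replicate 3.

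For low minus high growth on day 7, 0 of the 8 tested factors passed edgeR's test at an adjusted p of 0.05, where 0% of all 15865 genes did. At an unadjusted p under 0.05 there was 1, NR5A1, where 7.67% of all genes had such a p. On day 39 again 0 of 8 passed, where 0% of all genes did, and 2, TBX3 and LHX9, had an unadjusted p under 0.05, where 5.45% of all genes had one. limma voom also called 0 of the 8 on each day (0% of all genes on both). DESeq2 called 0 of the 7 to which it gave an adjusted p, where it called 0.0445% of all genes on day 7 and 0.115% on day 39. It gave none to NR5A1, whose DESeq2 difference on day 7 was 4.97 ± 1.38. The factors' differences were large and ran both ways. The median size of their log2 differences was 1.40 on day 7 and 1.42 on day 39, where the medians over all genes were 0.198 and 0.160. Of the 8 factors 6 lay above 0 on day 7 and 5 on day 39. Without both libraries that stand apart the day 39 median size was 0.502, where that over all genes was 0.118, and 2 of 8 lay above 0.

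**Figure D3:**
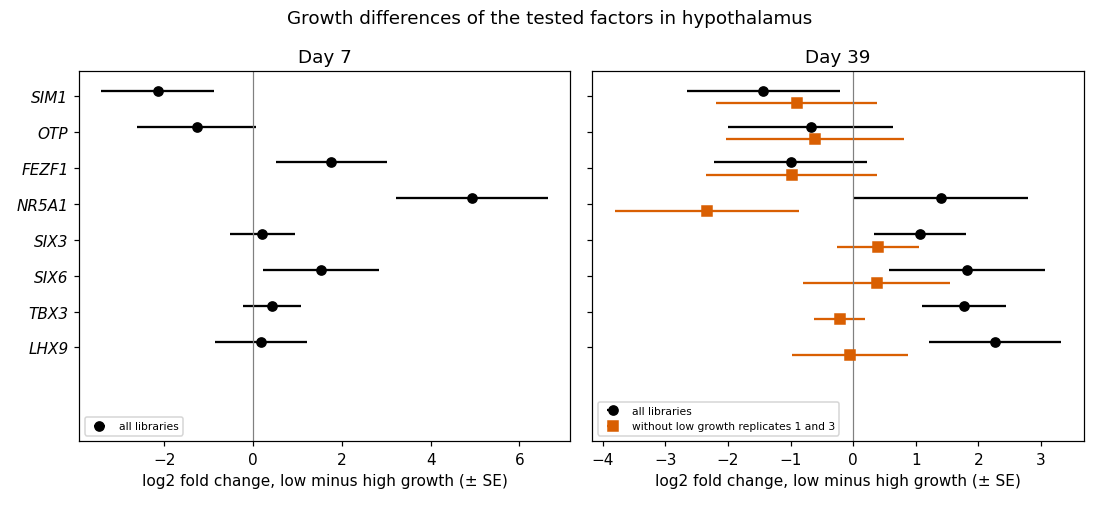
Log2 fold changes of the 8 tested factors in hypothalamus, low minus high growth, with bars of 1 SE derived from edgeR's F statistic, on day 7 (left) and day 39 (right). Circles use all libraries (n = 6 per group). Squares leave out day 39 low growth replicates 1 and 3, so that group has 2 fewer: NR5A1 moves from 1.40 to -2.33, TBX3 from 1.77 to -0.21 and LHX9 from 2.27 to -0.05.

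The growth differences of both days were compared with each other in 1 model. Of the 8 factors 0 differed between days by edgeR (0% of all genes), 0 had an unadjusted p under 0.05 (7.77% of all genes had one), and voom called 0 of 8 (0% of all genes). DESeq2 called 0 of 7, with no adjusted p for NR5A1, where it called 0.00636% of all genes. The largest difference, day 39 minus day 7, was that of NR5A1 at -3.53 ± 2.13 (adjusted p = 0.713), followed by FEZF1 at -2.76 ± 1.75 (adjusted p = 0.734) and LHX9 at 2.09 ± 1.46 (adjusted p = 0.766). Without both libraries that stand apart NR5A1 was at -7.25 ± 2.08 (adjusted p = 0.974) and LHX9 at -0.22 ± 1.24. Without day 7 low growth replicate 6 NR5A1 was at -0.58 and FEZF1 at -0.19, and without day 7 high growth replicate 1 FEZF1 was at -4.52.

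For day 39 minus day 7, averaged over growth, 0 of the 8 factors passed in edgeR, where 0.0315% of all genes did. SIX6 (1.96 ± 0.91, adjusted p = 0.507) and TBX3 (0.96 ± 0.47, adjusted p = 0.518) had an unadjusted p under 0.05, as 9.62% of all genes did, and voom called 0 of the 8 (0.0315% of all genes). DESeq2 called 0 of 7, with no adjusted p for NR5A1 (0.21% of all genes). SIX6 was above the day 7 median in 8 of 12 day 39 libraries. TBX3 was above it in 5 of 12, and its difference was -0.026 without both libraries that stand apart, where SIX6 stayed at 1.25 ± 0.81 (adjusted p = 0.813). The other 6 lay between -0.77 for FEZF1 and 1.44 for NR5A1.

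The model gives each gene 1 spread shared by the 4 groups, and this was wide for every tested factor. For TBX3 the groups were unlike, with 5.47 to 9.05 CPM in day 7 high growth and 3.21 to 132.8 CPM in day 39 low growth. Biological coefficients of variation, the model's relative spread between libraries of a group, ran from 0.749 for TBX3 to 1.59 for NR5A1, where the median over all genes was 0.318. Each tested factor lay at or above the 91.8 percentile of all genes, and at or above the 94.1 percentile of the genes nearest to it in mean level. OTP (1.56), SIX6 (1.48), SIM1 (1.39) and FEZF1 (1.36) came next after NR5A1.

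Across the factors, libraries differed as whole profiles. In 9 of 24 hypothalamus libraries 6 or more of the 9 factors were under 1 CPM. They were 3 of 6 in day 7 low growth, 2 of 6 in day 7 high growth, 3 of 6 in day 39 low growth and 1 of 6 in day 39 high growth. In 8 libraries 7 or more of the 9 factors were above their median over the 24, which were 2, 1, 2 and 3 of 6 in the same order. By these counts both kinds of library were present in every group. The library of the second kind in day 7 high growth, replicate 1, reached 7 only by counting RAX. RAX had 2 counts there (0.116 CPM), above its median of 0. SIM1 and OTP were both detected in 14 libraries and both under 1 CPM in 9. The single library with OTP (19.0 CPM) but not SIM1 (0.633 CPM) was day 39 low growth replicate 1.

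**Figure D4:**
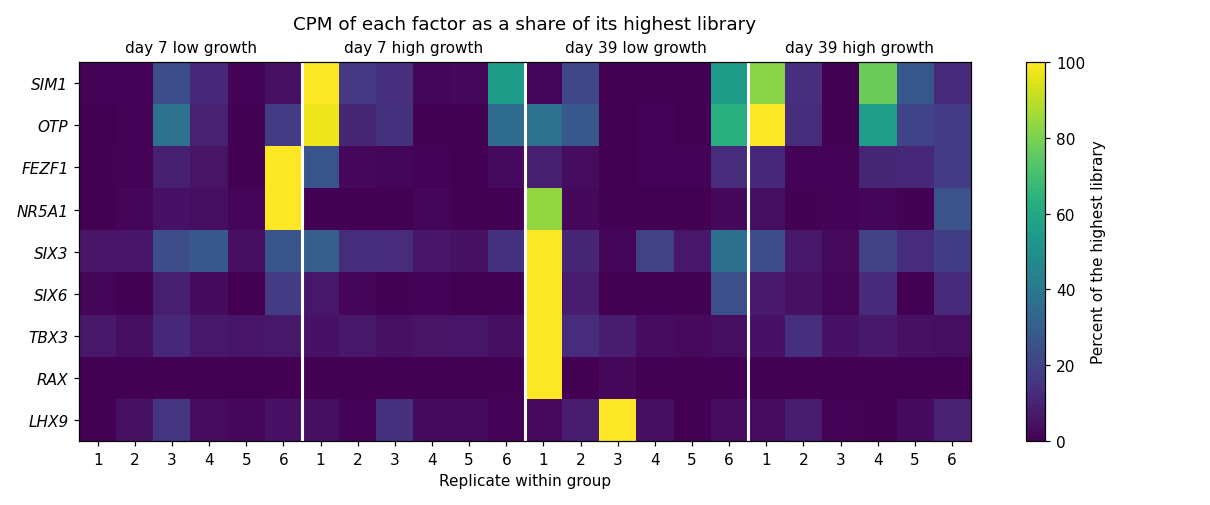
Level of each factor in each of the 24 hypothalamus libraries as a percentage of its highest library (colour), with libraries ordered by group and replicate. RAX, TBX3, SIX3 and SIX6 have their highest library in day 39 low growth replicate 1, FEZF1 and NR5A1 in day 7 low growth replicate 6, and LHX9 in day 39 low growth replicate 3.

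Whether factors went up and down together over the pieces was measured by Spearman's rho and Pearson's r of log2(CPM + 0.1) over the 24 libraries, with two-sided permutation p-values adjusted by Benjamini-Hochberg over all 36 pairs. A pair is said to pass by the adjusted p of its rho. Since OTP splits the libraries in 2 sets, its pairs are given within the sets. RAX had 3 counts or fewer in 22 of 24 libraries and cannot be ranked, so no relation of it is given. Of the 21 pairs without OTP or RAX, 9 passed, all with a positive rho. Among SIM1, FEZF1, NR5A1, SIX3 and SIX6, 9 of 10 pairs passed, the exception being SIM1 with NR5A1. NR5A1 and SIX6 had 3 counts or fewer in 11 and 10 libraries, so part of their ranking is among such values. Of the 11 pairs that hold TBX3 or LHX9, 0 passed. By r, TBX3 passed with SIX6 (r = 0.55, rho = 0.30, permutation adjusted p = 0.0124 for r) and with NR5A1 (r = 0.51, rho = 0.26, permutation adjusted p = 0.0451 for r), and these r were 0.26 and 0.25 without the 2 libraries farthest from the median, on which they rest. With OTP and RAX included, over all libraries, 15 of 36 passed. The share of all gene pairs that would pass is not given here, so these counts cannot be read as particular to the factors.

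FEZF1 and SIX3 had the highest rho of these pairs, 0.85 (r = 0.81, permutation adjusted p = 0.00012). It was 0.95 within day 7 and 0.72 within day 39, and r was 0.79 without the 2 libraries farthest from the median. NR5A1 followed SIX6 at a rho of 0.74 (r = 0.76, permutation adjusted p = 0.000504), with 0.45 within day 7 and 0.86 within day 39, and r was 0.66 without the 2 farthest. SIX3 and SIX6, the related pair, had a rho of 0.71 (r = 0.74, permutation adjusted p = 0.00078), with 0.84 and 0.69 within days, and r was 0.61 without the 2 farthest. FEZF1 and NR5A1, the ventromedial pair, had a rho of 0.57 (r = 0.65, permutation adjusted p = 0.0133), with 0.49 and 0.54 within days, neither of which passed alone (permutation adjusted p = 0.222 and 0.194), and r was 0.53 without the 2 farthest. SIM1 and FEZF1, factors of different nuclei, had a rho of 0.72 (r = 0.68, permutation adjusted p = 0.000926), with 0.72 within day 7 and 0.70 within day 39, and r was 0.59 without the 2 farthest.

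Part of these relations lay between libraries with and without the factors. In the 13 libraries where SIM1 and FEZF1 were both detected, rho was 0.11 and r was -0.10. In the 14 where FEZF1 and SIX3 were, rho was 0.46 and r was 0.40. In the 10 where SIX3 and SIX6 were, rho was 0.59 and r was 0.85. Those 10 include day 39 low growth replicate 1, the highest library of both SIX3 and SIX6. These values in detected libraries are descriptions without a test.

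SIM1 and OTP had, inside the set of 15 libraries with OTP, a rho of 0.68 and an r of 0.63 (permutation p = 0.00676). That p was 0.0946 after adjustment over the 28 relations computed within such sets, so it did not pass. The r was 0.93 without the 2 libraries farthest from the SIM1 median of these 15. In the 14 of them where SIM1 was detected too, rho was 0.85 and r was 0.86, a description without a test. In the 9 libraries without OTP the rho was 0.39 and r was 0.36 (exact permutation p = 0.294). OTP had a rho of 0.49 with FEZF1 and of 0.49 with SIX3 within the 15 (r = 0.38 and 0.43, permutation adjusted p = 0.361 for each).

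No pair with LHX9 passed, with rho between 0.09 and 0.26.

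**Figure D5:**
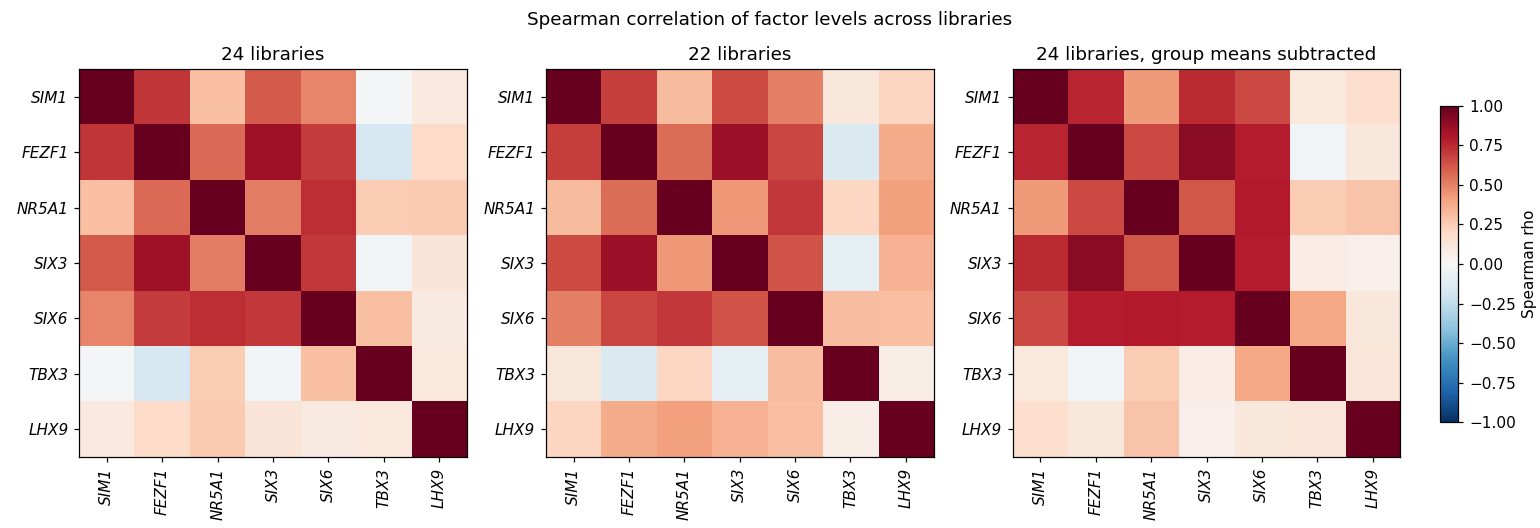
Spearman's rho (colour) between the levels of 7 factors across the 24 hypothalamus libraries (left), across 22 without day 39 low growth replicates 1 and 3 (middle) and across 24 after subtracting group means (right); OTP, which splits the libraries in 2 sets, and RAX, near 0 in most, are not drawn. SIM1, FEZF1, NR5A1, SIX3 and SIX6 form a block of positive values in each panel, and the LHX9 and TBX3 rows are pale.

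The factors were set beside the peptides of their regions in 17 pairs. Of the 10 pairs without RAX and without OTP or AVP, which split the libraries in sets, 5 passed. No share over all gene pairs is given for this count either. SIM1 followed CRH at a rho of 0.76 (r = 0.80, permutation adjusted p = 0.00051), with 0.59 within day 7 and 0.83 within day 39, and r was 0.76 without the 2 farthest. SIM1 followed OXT at a rho of 0.71 (r = 0.68, permutation adjusted p = 0.00102), with 0.81 and 0.69 within days, and r was 0.69 without the 2 farthest. Both relations had the same sign on each day. For AVP, whose levels left a gap between 215 and 2231 CPM, SIM1 had a rho of 0.18 among the 7 libraries above it (r = 0.29, exact permutation p = 0.713) and of -0.04 among the 17 below (r = -0.02, permutation p = 0.883). OTP had a rho of 0.69 with OXT within its 15 libraries (r = 0.56, permutation p = 0.00617, adjusted 0.0946), 0.31 with CRH (r = 0.37, permutation adjusted p = 0.686) and 0.38 with AVP (r = 0.48, permutation adjusted p = 0.597). In the 9 libraries with OTP at 0.537 CPM or less these rho were 0.29, 0.80 and 0.58. None passed (r = 0.33, 0.75 and 0.61, exact permutation adjusted p = 0.686, 0.116 and 0.442). OTP and AGRP had a rho of 0.15 within the 15 and 0.04 within the 9 (r = 0.14 and -0.36, permutation adjusted p = 0.764 and 0.931). Over all libraries, where the gaps themselves count, the 5 pairs with OTP or AVP passed. In the 14 libraries where SIM1 and AVP were both detected, rho was 0.67 and r was 0.70, a description without a test.

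ADCYAP1, the ventromedial peptide, followed NR5A1 at a rho of 0.56 (r = 0.53, permutation adjusted p = 0.0135) and FEZF1 at 0.53 (r = 0.62, permutation adjusted p = 0.0175). For NR5A1 the rho was 0.37 within day 7 and 0.65 within day 39, and for FEZF1 0.40 and 0.46, and r was 0.47 and 0.41 without the 2 farthest. Where both genes were detected, rho was 0.89 for NR5A1 (6 libraries) and 0.28 for FEZF1 (14 libraries), descriptions without a test. LHX9 and HCRT, the hypocretin gene, had a rho of 0.45 and an r of 0.26 (permutation adjusted p = 0.0491 for rho and 0.264 for r), with a rho of 0.72 within day 7 and 0.24 within day 39, and r was 0.68 without the 2 farthest. That rho was 0.64 without day 39 low growth replicate 3, where LHX9 is highest, and 0.24 with neuron and oligodendrocyte list sums taken out.

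TBX3 with the arcuate peptide AGRP did not pass on ranks (rho = 0.39, permutation adjusted p = 0.0839), while r was 0.72 (permutation adjusted p = 0.00163) and 0.62 without the 2 farthest. TBX3 with GHRH had a rho of 0.17 and with NPY of 0.03 (r = 0.61 and 0.32, permutation adjusted p of rho 0.479 and 0.928). LHX9 and SIM1 with PMCH, the melanin-concentrating hormone gene, had rho of 0.22 and 0.02 (r = -0.10 and 0.10, permutation adjusted p = 0.376 and 0.928).

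Summed levels of neuron and of oligodendrocyte (myelin-forming cell) genes also moved with some factors. The sum over 9 neuron genes followed LHX9 at a rho of 0.75 (r = 0.70, permutation adjusted p = 0.00162 over 18 relations) and SIM1 at 0.47 (r = 0.46, permutation adjusted p = 0.0457). The oligodendrocyte sum (5 of 6 listed genes matched) ran against LHX9 at a rho of -0.63 (r = -0.68, permutation adjusted p = 0.0101) and SIX3 at -0.56 (r = -0.23, permutation adjusted p = 0.0225). FEZF1, NR5A1 and SIX6 ran against it at rho of -0.49, -0.48 and -0.47 (r = -0.15, -0.42 and -0.42, permutation adjusted p = 0.0457 for each). OTP, which splits the libraries in 2 sets, had a rho of -0.59 with it over all 24 (r = -0.28, permutation adjusted p = 0.0154). These adjusted p are those of rho. By r, LHX9 alone passed (permutation adjusted p = 0.00324 with neuron and 0.00369 with oligodendrocyte genes). By r that p was 0.0823 for SIM1 with neuron genes, and with oligodendrocyte genes 0.344 for SIX3 and 0.546 for FEZF1. Within days the LHX9 rho with neuron genes was 0.76 and 0.71, and r was 0.78 without the 2 farthest. For oligodendrocyte genes the LHX9 rho was -0.80 within day 7 and -0.50 within day 39, and that of SIX3 -0.58 and -0.33, with r of -0.42 and -0.73 without the 2 farthest. Within the same days that of FEZF1 was -0.69 and -0.11, of NR5A1 -0.43 and -0.53 and of SIX6 -0.45 and -0.37. With both sums taken out, 16 of 36 factor pairs passed, a count that includes pairs with OTP and RAX. The relations were not all the same, since LHX9 then turned to a negative rho with SIM1, OTP, FEZF1 and SIX6. Beyond taking out these sums, the part of cell make-up in the factor levels was not tested.

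Among 12505 named genes whose mean log2 CPM reached 0, the gene most like each factor in its ranking of the 24 libraries was named as a description. They were CHSY3 for SIM1 (rho = 0.91), a chondroitin synthase, NWD2 for OTP (0.93) and SCGN for SIX3 (0.92), the calcium-binding secretagogin of peptide neurons. For LHX9 it was NCDN (0.90), the neuronal protein neurochondrin. FEZF1 was most like RFTN1 (0.87), SIX6 like LIMD2 (0.85) and NR5A1 like LRAT (0.79), an enzyme of vitamin A storage. TBX3 had no gene as near, with PDE5A (0.74) on top.

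Set against ileum, a tissue without these nuclei, 8 of 8 tested factors passed edgeR's test over 48 libraries, where 85.1% of all 16976 genes did (85.6% at an unadjusted p under 0.05). DESeq2 called 8 of 8 as well, where it called 85.5% of all genes, and voom called 7 of 8 (85.1% of all genes), the exception being NR5A1 at 0.92 ± 0.57 (adjusted p = 0.132). Higher in hypothalamus were 7 of them, where 44.4% of all genes were. The largest differences, hypothalamus minus ileum, were those of SIX3 (9.37 ± 0.51 on the log2 scale, n = 24 per tissue) and OTP (9.23 ± 0.93), then FEZF1 (8.31 ± 0.83), SIX6 (6.66 ± 0.80) and SIM1 (5.82 ± 0.64). LHX9 (3.16 ± 0.47) and NR5A1 (2.65 ± 0.62) differed less, and ileum libraries held up to 17 and 13 counts of them. The highest ileum library had 3 counts of OTP and of SIX3, 4 of FEZF1, 2 of SIX6 and 5 of SIM1. TBX3, which acts in many organs, was lower in hypothalamus by -2.20 ± 0.27, with 30.7 to 186 CPM and a median of 45.4 CPM in ileum.

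Of 44 other transcription factors known from the hypothalamus, 42 were matched and 38 tested in hypothalamus. For growth on day 7 0 of 38 passed edgeR's test and 23 lay above 0, and the lowest p belonged to LHX8 (4.91 ± 1.68, adjusted p = 0.549), HMX3 (2.77 ± 1.40), HMX2 (2.48 ± 1.31) and ISL1 (1.75 ± 0.95). On day 39 0 of 38 passed and 19 lay above 0, with the lowest p for LMX1A (3.65 ± 1.48, adjusted p = 0.797), MEIS2 (1.09 ± 0.53), LHX2 (1.73 ± 0.86) and LHX8 (2.91 ± 1.51). LMX1A stood at 79.1 CPM in day 39 low growth replicate 3, against at most 6.05 CPM in the 22 libraries that do not stand apart, and LHX2 at 88.5 CPM in replicate 1, against at most 11.6 CPM. Without both libraries LMX1A was at 0.24 ± 1.22 and LHX2 at 0.27 ± 0.62, while MEIS2 was at 1.21 ± 0.59 and LHX8 at 3.49 ± 1.51, with 18 of 38 above 0. The median log2 difference of the list was 0.18 on day 7 and 0.02 on day 39, where the medians over all genes were 0.01 and 0.02. At an unadjusted p under 0.05 there were 1 of the 38 on day 7 and 2 on day 39, where 7.67% and 5.45% of all genes had such a p. Against ileum 37 of 40 tested were higher in hypothalamus, where 44.4% of all genes were.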

How the data were processed

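Hypothalamus and ileum of piglets were sequenced (48 libraries, 8 groups of 6). Trim Galore, kallisto and DESeq2 were used with Sscrofa11.1, per the submitters' processing notes. Their versions and order were not given in the sources used here. As deposited, the main table holds estimated counts by gene, 53% of them not whole, and a table of normalized signal that is these counts times 1 factor per library, used only for an alternative. Estimated counts are not molecule counts and can be shared between similar genes. Per the labels, the mean RNA integrity number was 7.8.

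Symbols came from a RefSeq table of Sscrofa11.1 (14894 of 22924 genes). Counts were rounded and tested in edgeR 4.0.16 under R 4.3.3: TMM, filterByExpr (minimum count 10, total 15), the quasi-likelihood F test over 24 hypothalamus libraries (48 for tissues), two-sided, Benjamini-Hochberg over all genes kept, threshold 0.05. The SE of an edgeR value was derived as the size of the log2 fold change divided by the square root of F. CPM uses TMM library sizes. DESeq2 1.42.0, limma 3.58.1 voom, limma on log2(signal + 1), other size factors, no filter, 1 day alone and leaving out each library were alternatives. The fits were tested on simulated data, with changes put only into well-counted genes of less than median spread. The factors all spread more than that, so the simulation does not show what change could be found in them. Correlations use 100000 permutations (smallest p 1e-05), exact with fewer than 10 libraries. Sets split by a gap of over 2 log2 units with at least 6 libraries on each side, an alternative chosen after seeing the data, as were leaving out both libraries that stand apart and the list sums. NKX2-1 was not matched to a row, so its planned pairs were left out. Named genes are all members, the gene most like each (the rule takes 3; the others are not reported here), and the 4 other factors of lowest p per growth contrast. The members and lists were chosen with earlier results of these data known.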

Additional observations from a re-analysis of the deposited data

Results flagged for a closer look

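In 18 of 36 checks of a factor within a group of 6 hypothalamus libraries, the highest library stood apart from the rest by Dixon's 95% criterion (0.625 of the group's range for 6 values) on the linear CPM scale. Chance alone flags about 1 in 20 such groups where values are normally spread.

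In day 39 low growth, replicate 1 stood apart for TBX3 (132.8 CPM), RAX (24.2 CPM), NR5A1 (23.4 CPM), SIX3 (123 CPM) and SIX6 (28.2 CPM), and replicate 3 for LHX9 (39.5 CPM). In day 7 low growth, replicate 6 stood apart for FEZF1 (78.6 CPM) and NR5A1 (27.9 CPM), and replicate 3 for LHX9 (6.05 CPM), TBX3 (15.4 CPM) and RAX (0.113 CPM). In day 7 high growth, replicate 1 stood apart for OTP (48.9 CPM), FEZF1 (20.3 CPM) and SIX6 (1.86 CPM), replicate 3 for LHX9 (5.81 CPM) and replicate 4 for NR5A1 (0.380 CPM). In day 39 high growth, replicate 2 stood apart for TBX3 (17.7 CPM) and replicate 6 for NR5A1 (7.11 CPM). The RAX value of 0.113 CPM and the NR5A1 value of 0.380 CPM rest on few counts.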

How the results depend on the processing

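No factor that an alternative gave an adjusted p passed in the 4 hypothalamus contrasts. That was 8 factors under most, 9 with RAX where no filter was applied or the normalized table was used, and 7 under DESeq2, which gave none for NR5A1. With that day's libraries alone it was 6 on day 7, without SIX6 and NR5A1, and 7 on day 39, without NR5A1, and this setting has no value for the other contrasts. Directions of single factors turned. For low minus high growth on day 39, limma voom gave SIX6 -0.60 and NR5A1 -0.71, the normalized table -0.45 and -0.57, and leaving out both libraries that stand apart gave NR5A1 -2.33, TBX3 -0.21 and LHX9 -0.049. For the difference of growth effects, voom gave SIM1 -1.09, SIX6 -1.79 and OTP -1.48, the normalized table -0.93, -1.57 and -1.28, and leaving out both gave SIX6 -1.13, TBX3 -0.61 and LHX9 -0.22. For day 39 minus day 7, voom gave SIM1 -0.27, the normalized table SIM1 -0.17 and FEZF1 0.080, and leaving out both gave NR5A1 -0.42, TBX3 -0.026 and LHX9 -0.24. The cause of the turns under voom and the normalized table was not tested. Leaving out 1 library at a time, values that turned ranged as follows. On day 7 LHX9 lay between -0.57 and 1.06, FEZF1 between -0.81 and 3.52 and SIX3 between -0.044 and 0.61. On day 39 NR5A1 lay between -2.52 and 3.22, TBX3 between -0.074 and 2.14, LHX9 between -0.14 and 2.69 and OTP between -1.37 and 0.010. For the difference of growth effects SIM1 lay between -0.71 and 1.64, SIX6 between -1.45 and 1.24, TBX3 between -0.48 and 1.72, LHX9 between -0.32 and 2.84, OTP between -0.52 and 1.53 and SIX3 between -0.089 and 1.12. For day 39 minus day 7 SIM1 lay between -0.18 and 0.99, NR5A1 between -0.51 and 2.91, LHX9 between -0.29 and 1.35, FEZF1 between -1.10 and 0.52 and SIX3 between -0.0081 and 0.67. Of the 36 factor pairs 15 passed over all libraries, 10 within day 7 and 4 within day 39, where 12 libraries remain, and 13 to 16 under the other settings. With neuron and oligodendrocyte sums taken out, LHX9 turned to a rho of -0.48 with SIM1, -0.49 with OTP, -0.50 with FEZF1 and -0.53 with SIX6. Of the 17 peptide pairs 10 passed over all libraries, 5 within day 7 and 1 within day 39. No paired analysis was made because no label says which hypothalamus and ileum libraries came from the same animal, so the tissues were compared as unpaired. The library numbers run in the same order of day and growth in both tissues, and whether they pair by animal was not tested. At 0.047 to 0.081 CPM per count, levels under 0.242 CPM are ranked with little precision.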
